A study of Homo sapiens with 4 samples.

Results

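The genes described here carry bone morphogenetic protein (BMP) signalling in and out of the cell: 5 ligands (BMP2, BMP4, BMP5, BMP6 and BMP7), 2 secreted antagonists (noggin, NOG, and gremlin 1, GREM1) and 3 target genes (ID1, ID2 and ID3). They were chosen by name, and all 14 of their probes were taken from the arrays through the accession given for each probe. They are 10 of the 25121 genes named on the array. RNA was measured on 4 one-colour Agilent arrays, 1 for each condition, from the androgen-independent prostate cancer lines PC3 and DU145. In each line, cells with an shRNA against luciferase (PC3-shC and DU145-shC) were compared with cells with an shRNA against ESS2 (PC3-shESS2 and DU145-shESS2). ESS2 is a nuclear protein studied here as a transcriptional coregulator. All cells were grown in RPMI1640 with 10% FBS, carried a stably selected or transduced shRNA, and were labelled from 0.1 µg of total RNA per array. The sample labels describe lentiviral transduction, whereas the methods of the study describe a transfected plasmid with puromycin selection in PC3, and whether the cells were pools or clones is not given in the sources used here.

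BMP ligands bind type I and type II serine/threonine kinase receptors, which phosphorylate SMAD1, SMAD5 and SMAD9. These join SMAD4 in the nucleus and switch on target genes, of which the ID genes are the classical immediate ones, together with inhibitors of the pathway such as SMAD6 and SMAD7. Noggin and gremlin bind the ligands outside the cell and keep them from the receptors. ID proteins lack a DNA-binding region and hold E proteins away from DNA. In prostate cancer the pathway is best known for its part in bone metastasis.

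There was 1 array per condition, so differences within a line come without replicate error or p-values. A gene was counted as called within a line when it differed by more than 2-fold. The values below are scaled signals, which are the scanner's processed signals after all 4 arrays were brought to a common 75th percentile. They are compared between arrays for the same probe only. A probe counted as dim when the scanner software did not mark it well above background, and the lowest scaled signal among probes that were well above background (the floor) was 8.28 on the PC3-shC array, 7.58 on PC3-shESS2, 9.94 on DU145-shC and 9.11 on DU145-shESS2. A fold against a dim value was computed against the higher of that value and the floor, and stands as a lower bound ("at least"). From 286 probes in PC3 and 283 in DU145 that were each spotted 10 times, the spot-to-spot SD of the log2 ratio between the arms of a line had a median of 0.08 in both lines. For probes with a scaled signal under 100 it was 0.15 in PC3 (9 probes) and 0.25 in DU145 (8 probes). This spread covers differences between spots only, and not between cultures or hybridizations. Both arrays of a line shared 1 slide and 1 scan, so that line, slide and scan cannot be told apart. In bulk RNA, fewer cells of a type and less RNA per cell also cannot be told apart.

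The targeted gene was lower under its shRNA in both lines. The scaled signal of ESS2 was 123 in PC3-shC and 45.0 in PC3-shESS2 cells, a log2 ratio of −1.45. It was 98.5 in DU145-shC and 19.3 in DU145-shESS2 cells, a log2 ratio of −2.35. With normexp background correction these ratios were −0.90, under 2-fold, and −1.13. Markers were read on each array to check the labelled lines. The epithelial genes KRT8, KRT18 and EPCAM were well above background on all 4 arrays, KLK3 was dim on all 4, and CTNNA1, deleted in PC3, was dim on both PC3 arrays and bright in DU145. Of 4 markers of other cell types, 3 were well above background on each PC3 array and 2 on each DU145 array, with a summed scaled signal of 384.5 in PC3-shC, 79.0 in PC3-shESS2, 48.7 in DU145-shC and 59.9 in DU145-shESS2 cells. The sum in PC3 followed the endothelial gene PECAM1 (313 in PC3-shC and 13.8 in PC3-shESS2 cells), and the fibroblast gene COL1A2 was dim on all 4 arrays. With their brightest probes, the leukocyte gene PTPRC (31.3 to 55.3) and the mural cell gene PDGFRB (12.5 to 14.1) were well above background on all 4 arrays at low signals. The other PDGFRB probe and most of the other PTPRC probes were dim on all 4 arrays. EPCAM was lower in DU145-shESS2 than in DU145-shC cells (399 against 2437, a log2 ratio of −2.61). The part of these markers in the results below was not tested.

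Of the ligands, BMP5 was higher in PC3-shESS2 cells and BMP6 was lower in DU145-shESS2 cells past 2-fold, and the others were dim or differed by less. BMP5, a ligand known from skeletal development, had a scaled signal of 10.3 in PC3-shC, 52.3 in PC3-shESS2, 13.9 in DU145-shC and 9.49 in DU145-shESS2 cells. Only the PC3-shESS2 array stood clear of the floor, and BMP5 was dim on the DU145-shESS2 array. The log2 ratio in PC3 was 2.35, or 5.09-fold higher under ESS2 knockdown, and it shrank to 0.67 with normexp background correction, which pulls together signals near background. In DU145 BMP5 was at least 1.47-fold lower in the knockdown.

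BMP6, a ligand that also drives hepcidin expression in the liver, was well above background on all 4 arrays, at 26.3 in PC3-shC, 16.3 in PC3-shESS2, 133 in DU145-shC and 40.1 in DU145-shESS2 cells. Both knockdown arrays were below their controls. The log2 ratio was −0.69 in PC3, short of 2-fold, and −1.73 in DU145, a 3.32-fold lower signal. BMP6 was the only member with the same direction in both lines among those compared in both.

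BMP4, a ligand used across early development, had a scaled signal of 112 in PC3-shC and 134 in PC3-shESS2 cells, a log2 ratio of 0.26. It was 14.8 in DU145-shC and 5.57, dim, in DU145-shESS2 cells, which is at least 1.63-fold lower. The difference between the lines was thus wider than that between the arms of either line. BMP2, a strong inducer of bone, was well above background only on the PC3-shC array, at 10.2, and was 5.13 in PC3-shESS2, 2.21 in DU145-shC and 1.97 in DU145-shESS2 cells. Its PC3 values lay so near the floor that the knockdown was at least 1.34-fold lower, with no fold in DU145. BMP7, a ligand expressed in kidney and many epithelia, was dim with all 3 of its probes on all 4 arrays, at scaled signals between 1.87 and 5.09, and gave no fold in either line.

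**Figure D1:**
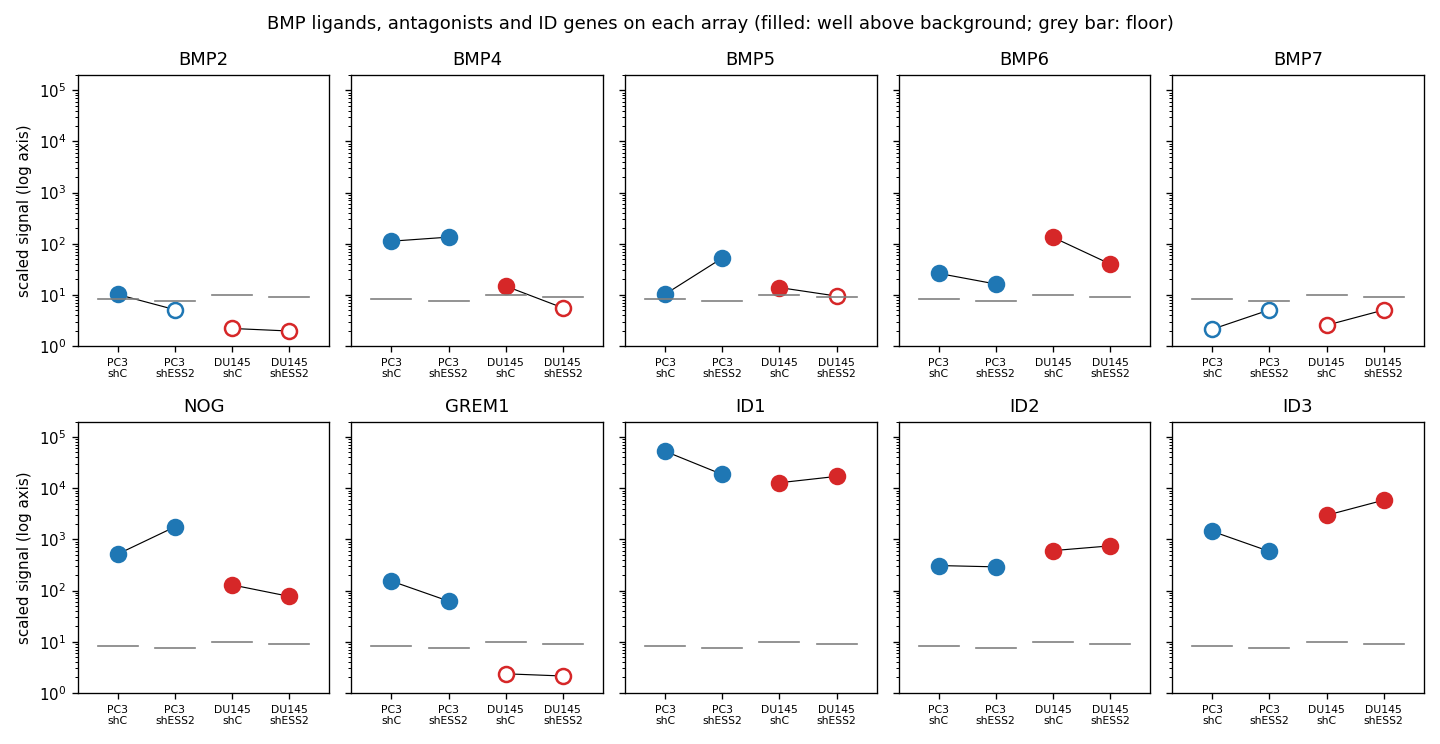
Scaled signal (log axis) of the 5 BMP ligands, NOG, GREM1 and the 3 ID genes on the 4 arrays, with PC3 in blue and DU145 in red, 1 point per array and the brightest probe of each gene. Filled points are well above background, open points are dim, and the grey bars mark the floor of each array; NOG goes from 515 to 1756 in PC3 and from 129 to 76.7 in DU145, while ID1 and ID3 go the other way in both lines.

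The antagonists moved in different directions in PC3. NOG encodes noggin, which binds BMP2, BMP4 and related ligands. Its scaled signal was 515 in PC3-shC, 1756 in PC3-shESS2, 129 in DU145-shC and 76.7 in DU145-shESS2 cells. The PC3-shESS2 array was the highest of the 4 and the DU145-shESS2 array the lowest. The log2 ratio was 1.77 in PC3, or 3.41-fold higher under knockdown, and −0.75 in DU145, a 1.68-fold lower signal that did not pass 2-fold. Neighbours in the order of the 4 arrays all differed by more than the spread between spots.

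GREM1 encodes gremlin, which binds BMP2, BMP4 and BMP7. Its brighter probe had a scaled signal of 153 in PC3-shC and 62.1 in PC3-shESS2 cells, a log2 ratio of −1.30, or 2.46-fold lower. Both DU145 arrays were dim, at 2.36 and 2.13, and gave no fold. The other GREM1 probe was 46.8 in PC3-shC and 5.29, dim, in PC3-shESS2 cells, at least 6.17-fold lower, and was dim in DU145 as well. Both probes thus placed GREM1 lower in PC3-shESS2 cells but differed in size. With normexp background correction the ratio of the brighter probe was −0.88, under 2-fold.

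ID1 and ID3 were lower past 2-fold in PC3-shESS2 cells and higher, within 2-fold, in DU145-shESS2 cells than in the controls, and ID2 differed by little. ID1 was bright on every array, with a scaled signal of 52716 in PC3-shC, 18569 in PC3-shESS2, 12758 in DU145-shC and 16989 in DU145-shESS2 cells. The log2 ratio was −1.51 in PC3, or 2.84-fold lower, and 0.41 in DU145, or 1.33-fold higher. PC3-shC cells thus stood apart from the other arrays, and the PC3-shESS2 and DU145-shESS2 arrays were the nearest neighbours in the order, closer than the shift between scalings of the lines.

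ID3 had a scaled signal of 1436 in PC3-shC, 581 in PC3-shESS2, 2954 in DU145-shC and 5834 in DU145-shESS2 cells. Every DU145 array lay above every PC3 array, and the knockdown arrays were the extremes at both ends. The log2 ratio was −1.30 in PC3, or 2.47-fold lower. In DU145 it was 0.98, or 1.98-fold higher, which fell just short of the 2-fold line and passed it under 4 of the alternative settings, which reached 1.04.

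ID2 was compared with 2 probes. The brighter one had a scaled signal of 308 in PC3-shC, 289.9 in PC3-shESS2, 602 in DU145-shC and 746 in DU145-shESS2 cells, with log2 ratios of −0.09 in PC3 and 0.31 in DU145. The other one had log2 ratios of −0.21 and 0.40. The PC3 ratio of the brighter probe was about the size of the spread between spots, and it was 0.00 with the authors' scaled values, so that no direction can be given for ID2 in PC3. In DU145 both probes were higher under knockdown by more than the spread between spots but under 2-fold.

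The 3 ID promoters are shown because these genes are the targets on which the comparison turns. The windows cover the 250 bases before the annotated start, from a table of RefSeq promoters of GRCh38.p14, in which 7 of the 10 members were matched, all but BMP2, BMP7 and NOG. Each is written 5′ to 3′ on the strand of its gene. ID1 lies at chr20:31605039-31605288 on the plus strand, ID2 at chr2:8681806-8682055 on the plus strand and ID3 at chr1:23559502-23559751 on the minus strand. Capitals mark any of 4 motifs, each searched on both strands. The motif GGCGCC, which reads the same on either strand, is known from SMAD binding. So is the motif CAGAC, which reads as GTCTG on the opposite strand. Of the core promoter elements, the CCAAT box was searched for, which reads as ATTGG on the opposite strand. The TATA box was searched for as TATAA, which reads as TTATA on the opposite strand, and its matches can overlap each other where the strands meet.
ID1: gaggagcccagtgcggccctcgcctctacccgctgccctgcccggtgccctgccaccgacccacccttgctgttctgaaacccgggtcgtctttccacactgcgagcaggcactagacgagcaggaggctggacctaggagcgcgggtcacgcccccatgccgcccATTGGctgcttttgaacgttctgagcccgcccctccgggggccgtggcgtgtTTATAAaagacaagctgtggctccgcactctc
ID2: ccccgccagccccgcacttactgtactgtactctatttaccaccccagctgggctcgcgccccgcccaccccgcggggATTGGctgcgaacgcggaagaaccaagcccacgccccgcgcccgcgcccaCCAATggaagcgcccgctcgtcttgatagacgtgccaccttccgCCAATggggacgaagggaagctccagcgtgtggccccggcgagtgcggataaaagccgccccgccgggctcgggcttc
ID3: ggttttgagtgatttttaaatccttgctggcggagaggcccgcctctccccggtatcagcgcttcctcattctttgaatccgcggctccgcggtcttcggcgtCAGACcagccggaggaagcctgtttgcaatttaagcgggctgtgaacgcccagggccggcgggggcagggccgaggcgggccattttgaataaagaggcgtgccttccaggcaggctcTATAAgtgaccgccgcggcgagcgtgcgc

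ID1 had 1 CCAAT match between 84 and 80 bases before its start, and 2 overlapping TATAA matches, 1 on each strand, between 32 and 27 bases before it. ID2 had 3 CCAAT matches and no TATAA match in this window. ID3 had 1 CAGAC match between 147 and 143 bases and 1 TATAA match between 29 and 25 bases before its start. GGCGCC was found in none of the 3 windows. Of the 35116 promoter windows of this length in the table, 38.0% held CAGAC, 16.4% GGCGCC, 32.0% CCAAT and 18.9% TATAA. These matches describe the letters of the window, and the arrays did not measure binding to them. The motifs were chosen after the expression values were known.

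Counted together, 9 of the 10 genes could be compared in PC3, of which 2 were higher in the knockdown past 2-fold (BMP5 and NOG) and 3 lower (GREM1, ID1 and ID3). Of all 16764 genes compared in PC3, 3.88% were higher and 3.87% lower past 2-fold, 7.75% in all. With all arrays scaled to their medians, which moved the median log2 ratio of all genes in PC3 from −0.06 to −0.16, the split of calls over all genes went from 650 higher and 649 lower to 511 and 803. With the authors' scaled values it went the other way, to 792 and 535. The same 5 members passed 2-fold under both. The median log2 ratio of the 9 members was −0.43, which is the bound of BMP2, against −0.06 for all genes. Over the alternatives the median of the members ran from −0.69 with plain signals of dim spots to −0.21 with normexp background correction. In DU145, 7 could be compared, none was higher past 2-fold and 1 was lower (BMP6). Of all 16842 genes compared in DU145, 2.36% were higher and 2.47% lower, 4.83% in all. The median of the 7 members was −0.55, which is the bound of BMP5, and that of all genes −0.02. Over the 5 members well above background on both DU145 arrays it was 0.31, so that its sign depends on the dim genes.

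The ratios in the 2 lines are set side by side, as a difference between the responses could not be tested with 1 array per condition. These comparisons share no array. Of the 7 members compared in both lines, 6 had ratios of opposite sign, and BMP6 alone had the same sign. Among all 15478 genes compared in both lines, 43.0% had ratios of opposite sign. The members of opposite sign were BMP4, BMP5 and NOG, above 0 in PC3 and below 0 in DU145, and ID1, ID2 and ID3, below 0 in PC3 and above 0 in DU145. In DU145 the 4 ligand or antagonist genes compared were below 0 and the 3 ID genes above it, whereas in PC3 BMP2, BMP6 and GREM1 lay below 0 together with the ID genes. Lower in PC3 and higher in DU145, as the 3 ID genes were, held for 23.3% of all genes. Lower in PC3 past 2-fold and higher in DU145, as ID1 and ID3 were, held for 1.34% of all genes. The sign of ID2 in PC3 was not settled, as given above, and the DU145 values of BMP4 and BMP5 were dim in the knockdown.

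**Figure D2:**
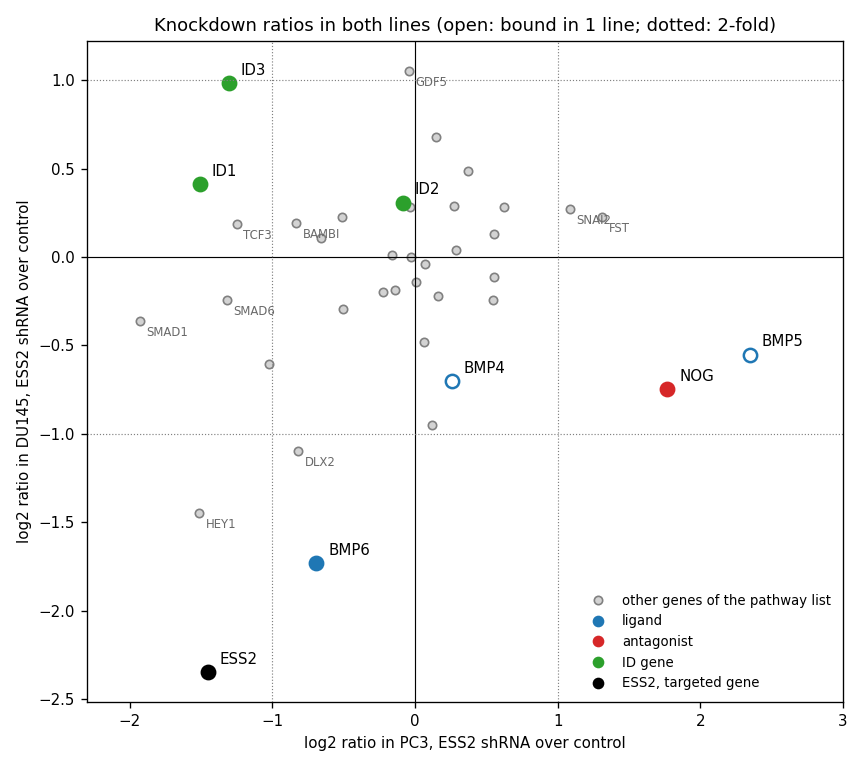
Log2 ratio of ESS2 shRNA over control in PC3 (horizontal axis) and DU145 (vertical axis) for the members compared in both lines, ESS2 and the other genes of the pathway list, 1 point per gene and 1 array per condition. Dotted lines mark 2-fold and open coloured points hold a bound in DU145; ID3 (−1.30 and 0.98) and ID1 (−1.51 and 0.41) lie in the upper left and NOG (1.77 and −0.75) in the lower right.

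A response that both lines share was sought with limma over the 4 arrays, in which the line was a block. Of 17126 genes tested, 0% were called at an adjusted p of 0.05, and 6.00% had an unadjusted p under 0.05. Of the 8 members tested none was called and 1, BMP6, had an unadjusted p under 0.05. BMP6 was lower under knockdown by a log2 difference of −1.21 (SE 0.33, limma adjusted p = 0.754), in 2 of 2 lines. ID1 had a difference of −0.55 (SE 0.55, limma adjusted p = 0.808) and ID3 one of −0.16 (SE 0.64, limma adjusted p = 0.953). NOG had a difference of 0.51 (SE 0.70, limma adjusted p = 0.852). With 1 residual degree of freedom the fit borrows much of its precision from other genes, and a p that misses the threshold does not show that a gene stayed level. ESS2 itself, lower in both lines, was not called either (−1.90, SE 0.30, limma adjusted p = 0.754).

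The levels of the members were also compared between the lines. In the same fit, 8597 of the 17126 genes (50.2%) differed between PC3 and DU145, 4750 higher (27.7%) and 3847 lower (22.5%) in PC3. This split rests on the scaling: it was 6820 and 2802 with scaling to the median, where the median difference of all genes went from 0.11 to 0.50, and 3005 and 5553 with the authors' scaled values, where it was −0.30. Of the 8 members tested, 5 were called, 3 higher in PC3 (BMP4, NOG and GREM1) and 2 lower (BMP6 and ID2), a share near that of all genes. None of the 8 changed direction under any scaling.

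BMP4 was higher in PC3 by a log2 difference of 3.76 (SE 0.48, limma adjusted p = 0.0121), fitted on the plain signals although 1 of its 2 DU145 arrays was dim. The difference was 1.23 with normexp background correction, and the call was lost with no filter on dim genes (limma adjusted p = 0.0596). NOG was higher in PC3 by 3.26 (SE 0.70, limma adjusted p = 0.0323), and lost the call with the authors' scaled values (limma adjusted p = 0.0517) and with no filter on dim genes (0.116). GREM1 was at least 10.2-fold higher in PC3 with its brighter probe, as both DU145 arrays were dim. That bound rests on the processed signal and was not itself tested. The fitted log2 difference of GREM1 was 5.44 on the plain signals (limma adjusted p = 0.00439). This difference went down to 1.28 with normexp background correction and to 4.21 with the mean of the GREM1 probes. BMP6 was lower in PC3 by 1.82 (log2 difference −1.82, SE 0.33, limma adjusted p = 0.0231). It was −0.98 with normexp background correction, and lost the call with no filter on dim genes (limma adjusted p = 0.0824) and with no knockdown block (0.0705).

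ID2 was lower in PC3 (−1.17, SE 0.21, limma adjusted p = 0.0218), and this call was lost with scaling to the median (0.0573), with no filter on dim genes (0.0593) and with the mean of its probes (0.0635). ID3 was lower in PC3 (−2.18, SE 0.64) with a limma adjusted p of 0.0623, and passed the threshold under 5 of the alternatives (lowest limma adjusted p = 0.0316). ID1 (1.09, SE 0.55, limma adjusted p = 0.178) and BMP5 (1.01, SE 0.80, limma adjusted p = 0.347) did not pass.

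**Figure D3:**
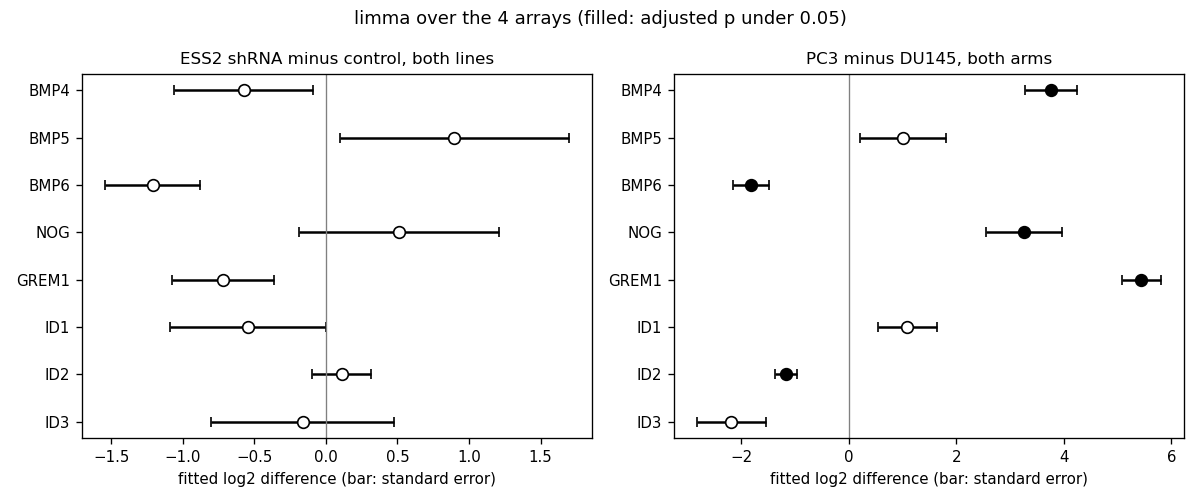
Fitted log2 differences of the 8 members tested by limma over the 4 arrays, ESS2 shRNA minus control on the left and PC3 minus DU145 on the right, with standard errors as bars and filled points for an adjusted p under 0.05. No point on the left is filled, and on the right BMP4 (3.76), NOG (3.26), GREM1 (5.44, fitted on dim DU145 signals), BMP6 (−1.82) and ID2 (−1.17) are.

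The rest of the pathway was followed with a list of 56 further genes, of which 55 were on the array by name (NBL1 was not matched). In PC3, 40 of these could be compared, of which 3 were higher past 2-fold (3.88% of all genes were) and 7 lower (3.87%), and their median log2 ratio was 0.04 against −0.06 for all genes. In DU145, 36 could be compared, of which 1 was higher (2.36% of all genes were) and 3 lower (2.47%), with a median of 0.03 against −0.02. With normexp background correction 6 of the 10 PC3 calls remained (BMP3, FST, SMAD1, SMAD6, HEY1 and TCF3) and none of the 4 in DU145. Other alternatives also took single calls under 2-fold: ID4 with quantile normalization and the authors' scaled values, GDF7 with the authors' scaled values and the mean of its probes, SNAI2 with scaling to the median, and BMPER in DU145 with the mean of its probes. GDF7 and DLX5 were not compared in PC3 with a filter on both arrays. In the fit over both lines 40 of the list were tested, none was called by limma and 3 had an unadjusted p under 0.05 (6.00% of all genes did).

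Among the other ligands in PC3, 2 of the 4 compared were lower past 2-fold. BMP3, a ligand known to oppose other BMPs in bone, was 213 in PC3-shC and 9.16 in PC3-shESS2 cells (log2 ratio −4.54), and at least 8.08-fold lower with its other probe. It was dim on both DU145 arrays. GDF7 was 15.4 in PC3-shC and dim in PC3-shESS2 cells, at least 2.03-fold lower. In DU145, GDF5, a ligand of joint formation, was 13.6 in the control and 28.2 in the knockdown (log2 ratio 1.05), and its log2 ratio in PC3 was −0.04.

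Of the other antagonists, follistatin (FST), which binds activins and some BMPs, was higher past 2-fold in PC3, at 4845 in the control and 12015 in the knockdown (log2 ratio 1.31). In DU145 it was 26.4 and 31.0. BMPER, an extracellular BMP modulator, was dim in PC3 and was 337 in DU145-shC and 134 in DU145-shESS2 cells (log2 ratio −1.33) with its brighter probe. The other BMPER probe was dim on every array, at 6.05 in DU145-shC and 5.63 in DU145-shESS2 cells, and gave no fold. The remaining antagonists compared, 5 in PC3 and 7 in DU145, stayed within 2-fold.

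No receptor or co-receptor passed 2-fold, out of 10 compared in PC3 and 8 in DU145. Among the signal carriers and inhibitors, SMAD1, the receptor-activated SMAD, was 2631 in PC3-shC and 691 in PC3-shESS2 cells (log2 ratio −1.93), and 956 and 746 in the DU145 arms (−0.36). SMAD6, an inhibitory SMAD that BMP signalling itself induces, was 1001 in PC3-shC and 401 in PC3-shESS2 cells (−1.32), with a log2 ratio of −0.24 in DU145. The other 7 of the 9 stayed within 2-fold in PC3, SMAD5 (−0.14), SMAD9 (0.55), SMAD4 (−0.66) and SMAD7 (0.55) among them. A dimmer SMAD4 probe, well above background on every array, had a log2 ratio of 0.11 in PC3, so the SMAD4 probes differed in sign. In DU145 all 9 stayed within 2-fold.

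Of the 8 other target genes compared in PC3, 2 were higher and 2 lower past 2-fold. HEY1, a target shared with the Notch pathway, was lower in both lines, from 475 to 166 in PC3 (log2 ratio −1.51) and from 92.2 to 33.8 in DU145 (−1.45). Its difference over both lines was −1.48 (SE 0.18, limma adjusted p = 0.754). ID4, the remaining ID gene, was 80.0 in PC3-shC and 39.9 in PC3-shESS2 cells (2.01-fold lower) and dim in DU145. SNAI2, which encodes the repressor Slug, was higher in PC3, from 269.6 to 571 (log2 ratio 1.08). DLX5, a homeobox gene of bone, was dim in PC3-shC and 20.7 in PC3-shESS2 cells, at least 2.49-fold higher. In DU145, DLX2 was lower past 2-fold, from 26.8 to 12.5 (log2 ratio −1.10), and its log2 ratio in PC3 was −0.82. Of the E proteins that ID proteins bind, TCF3 was lower past 2-fold in PC3 (log2 ratio −1.25) and had a log2 ratio of 0.19 in DU145, and TCF12 stayed within 2-fold in both lines (0.07 and −0.04). TCF4 had a log2 ratio of −0.32 in PC3 and was dim in DU145.

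The genes whose 4 values ran most like those of NOG and ID3 were sought among 14686 genes well above background on all 4 arrays, as these members had the widest range in their class among those that were themselves well above background on all 4 (BMP6 and NOG, and the 3 ID genes). The measure was the root mean square distance between log2 values centred on each gene's own mean. Nearest to NOG were ATP6V0A4 (distance 0.10), BMAL2 (0.17) and KLF7 (0.24). ATP6V0A4, a subunit of the vacuolar proton pump, had log2 ratios of 1.60 in PC3 and −0.54 in DU145. Nearest to ID3 were HLA-DMA (0.14), TMEM37 (0.23) and RASL11A (0.24). HLA-DMA, which helps load peptides onto class II molecules, had log2 ratios of −1.22 in PC3 and 1.19 in DU145. These likenesses are over 4 arrays and describe a pattern only.

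**Figure D4:**
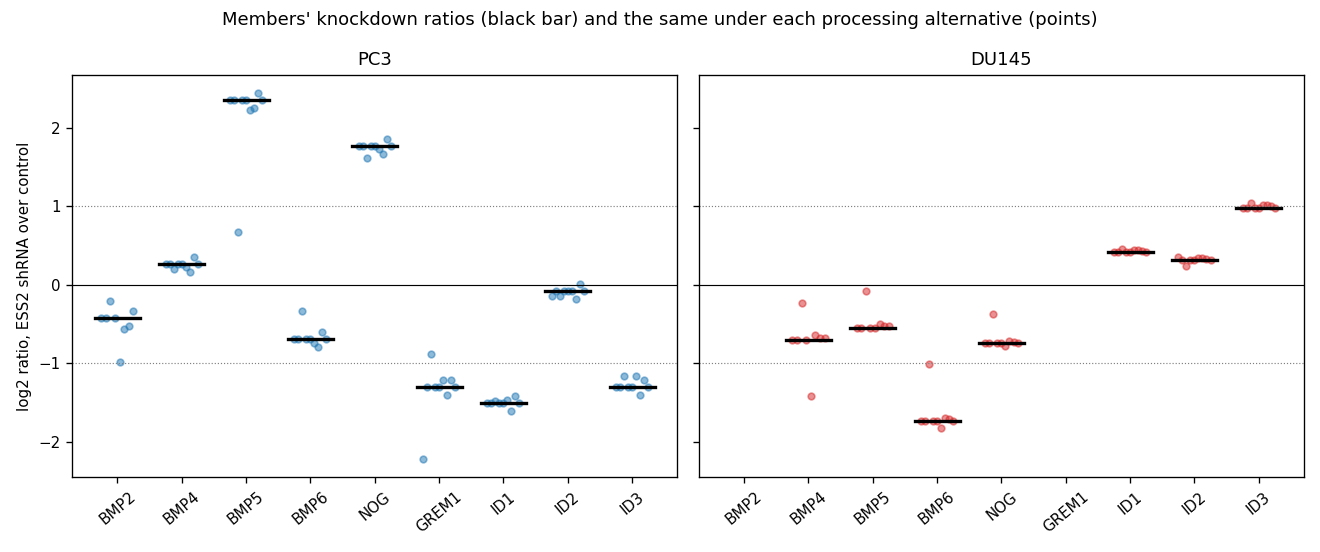
Log2 ratio of ESS2 shRNA over control for each member in PC3 (left) and DU145 (right), with the reported value as a black bar and the same value under each processing alternative as points; dotted lines mark 2-fold. BMP7 was dim on all arrays and is left out, as are BMP2 and GREM1 in DU145; ID1 stays between −1.61 and −1.41 in PC3, whereas BMP5 goes down to 0.67.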

How the data were processed

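The authors deposited the scanner output of 4 one-colour arrays, made with Agilent Feature Extraction (12.1.0.3 for PC3 and 12.0.3.1 for DU145, per the file headers), in which each spot's intensity was background-subtracted without scaling between arrays. The authors' table of scaled intensity equals that signal times 1 constant per array and was used as an alternative; its columns have medians of 41.6, 47.5, 77.6 and 77.3 (PC3-shC, PC3-shESS2, DU145-shC, DU145-shESS2). From the processed signal, log2 values minus each array's 75th percentile (263, 290, 212 and 218) were taken, without control and outlier-flagged spots. Of the non-control spots, 50.8 to 52.6% were well above background, and none was saturated. Accessions without version were matched to the RefSeq table of GRCh38.p14, which named 35080 of 58201 probes. The 2 annotation releases in the files gave 85.5% of spots the same accession, and the newer took precedence. A gene was represented by its brightest probe and compared in a line when well above background on 1 array or more. The fit (limma 3.58.1 in R 4.3.3, 1 residual degree of freedom, Benjamini-Hochberg) used plain values of genes well above background on 2 arrays or more. The normexp alternative used median spot signals with an offset of 50. The other alternatives were scaling to the median, quantile normalization, other filters on dim genes, plain dim signals, other treatments of several probes, outlier spots kept and, in the fits, other blocks. Scripts ran in Python 3.11.15 and were tested on simulated data. The members, the pathway list, the markers and the rule for named genes (members, ESS2, pathway genes past 2-fold or called, markers, nearest patterns) were chosen with earlier results of these data known. Array precision is limited by the number of arrays. The unnamed probes were not used here. Some of the listed genes and markers are not reported here.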

Additional observations from a re-analysis of the deposited data

Results flagged for a closer look

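The responses of 6 members had opposite signs in PC3 and DU145, each as 1 array against 1 in each line, and the difference was not tested. On the log2 scale, the ratio in PC3 minus that in DU145 was 0.96 for BMP4, 2.90 for BMP5, 2.52 for NOG, −1.92 for ID1, −0.39 for ID2 and −2.29 for ID3. For BMP4 and BMP5 the DU145 ratio is a bound, as the knockdown array was dim. For ID2 the PC3 ratio was about the size of the spread between spots, and its sign turned with the authors' scaled values.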

How the results depend on the processing

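No paired analysis was possible because each condition has 1 array, beyond the pairing of the arms of a line that the line block of the fit makes. No array was left out in turn, as each is the only one of its condition. The slide as a block is identical to the line as a block. Counts over all genes moved most with normexp, which also took median spot signals and an offset, and with no filter on dim genes: genes past 2-fold were 1299 in PC3, 565 with normexp and 2338 with no filter, and 813 in DU145, 216 with normexp and 1774 with no filter. Genes that differed between PC3 and DU145 were 8597, and 4974 with no filter. Members past 2-fold were 5 in PC3 and 3 with normexp, which took BMP5 and GREM1 below the line. In DU145 they were 1 and became 2 under scaling to the median, quantile normalization, normexp and the authors' scaled values, where ID3 was added, and under plain signals of dim spots, where BMP4 was (−1.41). The response shared by both lines kept 0 calls by limma under all its alternatives, with between 29 (no cell line block) and 1313 unadjusted p under 0.05. Members of opposite sign were 6 of 7, 5 of 7 with the authors' scaled values, 4 of 5 with a filter on both arrays and 6 of 10 with no filter. No called ratio of a member changed sign. Between them the alternatives moved NOG from 1.62 to 1.86 in PC3, ID1 from −1.61 to −1.41 and ID3 from −1.41 to −1.16; in DU145 BMP6 ranged from −1.83 to −1.01.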

Other observations

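The probes of CHRD disagreed on the line with the higher signal. CHRD, which encodes the antagonist chordin, was higher in DU145 with its brighter probe (262 and 419 against 14.5 and 16.1 in PC3) and higher in PC3 with the other (32.8 and 26.3 against 10.1 and 16.8 in DU145), where its value on the DU145-shC array was dim. SOST, which encodes the secreted antagonist sclerostin, was well above background only on the DU145-shESS2 array, at 14.2, at least 1.43-fold above the DU145 control.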
